A study of Mus musculus with 8 samples.

Results

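The BAF complex, the mammalian SWI/SNF chromatin remodeller, was followed through the 10 genes of its exchangeable subunits in 8 mouse RNA-seq libraries. The genes were chosen by name, as the subunits known to be swapped when neurons form together with the 2 alternative ATPases. They were matched by symbol to the Ensembl identifiers of the tables, and all 10 of 10 were found among 29713 genes. Each of the 8 groups held 1 library, so differences could not be checked against replicates and p-values are not given. Cerebellum, cortex and hippocampus are brain regions of strain C57. The glia and neuron libraries came from C57 brain, with age and method of isolation not given in the sources used here. ICR MEF and OG2 MEF are fibroblasts from day 13.5 embryos, of strain ICR and of strain OG2, which is known for a fluorescent reporter driven by the Pou5f1 gene. The last library was labelled R1 ESCs, a stem cell line from the inner cell mass, strain 129X1 x 129S1.

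BAF complexes use the energy of ATP to move or evict nucleosomes, and so open enhancers and promoters. They are assembled from a core and from positions that can be filled by alternative paralogues. Dividing neural progenitors use Actl6a (BAF53a, an actin-like subunit), Phf10 and Dpf2 (BAF45a and BAF45d, with PHD fingers that read histone tails) and Ss18. As neurons leave the cell cycle these are replaced by Actl6b (BAF53b), Dpf1 and Dpf3 (BAF45b and BAF45c) and Ss18l1 (CREST), in complexes needed for dendrite growth. Smarca4 (BRG1) and Smarca2 (BRM) are the alternative ATPases. The switch at the actin-like position is known to depend on miR-9-3p (miR-9*) and miR-124, which repress Actl6a in neurons. The genes of both microRNAs are held down outside neurons by the repressor REST.

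The miR-9-3p sequence and its seed matches are shown because they mark the known route by which Actl6a is lost. The seed, bases 2 to 8 of the microRNA, is in capitals, and so is its 7-base match (AGCTTTA) in each transcript. The mature sequence is from RefSeq (GRCm38.p6) and the transcripts are from GENCODE M21.
mmu-miR-9-3p: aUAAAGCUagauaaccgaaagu
Actl6a: tcaacgtctgtAGCTTTAgtacactcagg
Smarca2: catctagaactAGCTTTAgggtagtgcca
The Actl6a match starts at base 38 of a 3′ UTR of 371 bases (transcript Actl6a-201), and the Smarca2 match at base 132 of one of 952 bases (Smarca2-220). The longest annotated 3′ UTRs of the other 8 genes held no such match on the transcript strand, which says only that these letters are not there. Of 20982 genes with such a UTR, 11.3% held the match, so it is a description and not evidence of a site.

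The promoters of the actin-like paralogues are shown because these genes had the widest contrast of any position (300 bases around the RefSeq start, GRCm38.p6, plus strand, CpG in capitals). Actl6a lies at chr3:32708296-32708595 and Actl6b at chr5:137553296-137553595. The Actl6a window lies inside the GENCODE span of the gene, downstream of its start at 32706298, so the annotations differ on this start. The Actl6b window holds the GENCODE start of its gene, at 137553517.
Actl6a: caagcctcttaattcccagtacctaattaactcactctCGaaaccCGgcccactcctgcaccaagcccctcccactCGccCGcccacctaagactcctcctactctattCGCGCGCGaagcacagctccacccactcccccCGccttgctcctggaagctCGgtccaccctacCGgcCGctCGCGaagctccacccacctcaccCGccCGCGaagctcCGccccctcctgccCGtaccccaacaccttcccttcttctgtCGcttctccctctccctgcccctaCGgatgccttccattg
Actl6b: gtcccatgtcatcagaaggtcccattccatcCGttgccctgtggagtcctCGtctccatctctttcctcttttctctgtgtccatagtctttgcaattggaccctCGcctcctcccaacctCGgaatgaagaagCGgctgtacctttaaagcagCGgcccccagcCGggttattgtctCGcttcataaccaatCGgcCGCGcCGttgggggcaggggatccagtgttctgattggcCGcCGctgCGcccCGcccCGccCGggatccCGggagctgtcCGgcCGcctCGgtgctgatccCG
They held 21 and 23 CpG dinucleotides, at 63.7% and 61.7% G and C. As many CpG as in Actl6a were found in 24.8% of the 32851 promoters of the same length, and as many as in Actl6b in 21.5%. CpG content of these windows therefore differed little between a gene read in all libraries and one read in 4 of 8.

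The libraries held 2147004 to 5864673 expected counts each. Neuronal markers summed to between 5094 and 6957 TPM (a level corrected for transcript length and library total) in neuron and the brain regions and to 457 TPM in glia. In glia Rbfox3, which marks neuronal nuclei, was at 0 TPM and Snap25 and Syt1 were below 1 TPM, while the other 4 of 7 stood at 10 TPM or more (Stmn2 at 288, Map2 at 118, Tubb3 at 39.6 and Syp at 10.1 TPM). Neural progenitor markers summed to 855 TPM in glia, 88.0 to 159 in the brain regions, 50.6 and 64.5 in the MEFs and 31.7 in neuron. In glia Nes at 562 and Sox2 at 225 TPM were above every other library. The rest of this list was not: Pax6 at 63.3 TPM lay below cerebellum at 116. Hes5 at 4.62 TPM lay below cortex and hippocampus, and Dcx at 0.34 TPM below the brain regions and neuron. The glia library held 2612 TPM of astrocyte, 434 TPM of microglia and 1226 TPM of fibroblast markers, with all 7 dividing-cell markers at 10 TPM or more. Of the fibroblast sum 1018 TPM was Fn1. Lox, Col1a1 and Col1a2 stood at 36.4, 59.2 and 111 TPM, above the brain regions, and Pdgfra at 1.27 TPM, below them. All 5 fibroblast markers were lower in glia than in both MEFs. In the library labelled R1 ESCs 4 of 7 pluripotency markers were at 0 counts (Zfp42, Esrrb, Dppa5a and Utf1), while Pou5f1 at 20.2 and Nanog at 10.3 TPM were higher there than in any other library (at most 0.73 and 1.97 TPM). Ribosomal protein genes took 39.1% of its TPM, against 4.44% to 19.4% elsewhere. It is therefore called the library labelled R1 ESC, and it enters no comparison of groups other than its own with the MEFs. A gene was called in a comparison on 2 conditions: 10 TPM or more in all libraries of the higher group, and a 4-fold gap on TPM + 1 between the nearest libraries of the groups. A fold is the TPM ratio of these nearest libraries. Its 95% interval is exact (Clopper-Pearson) and covers counting error only.

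**Figure D1:**
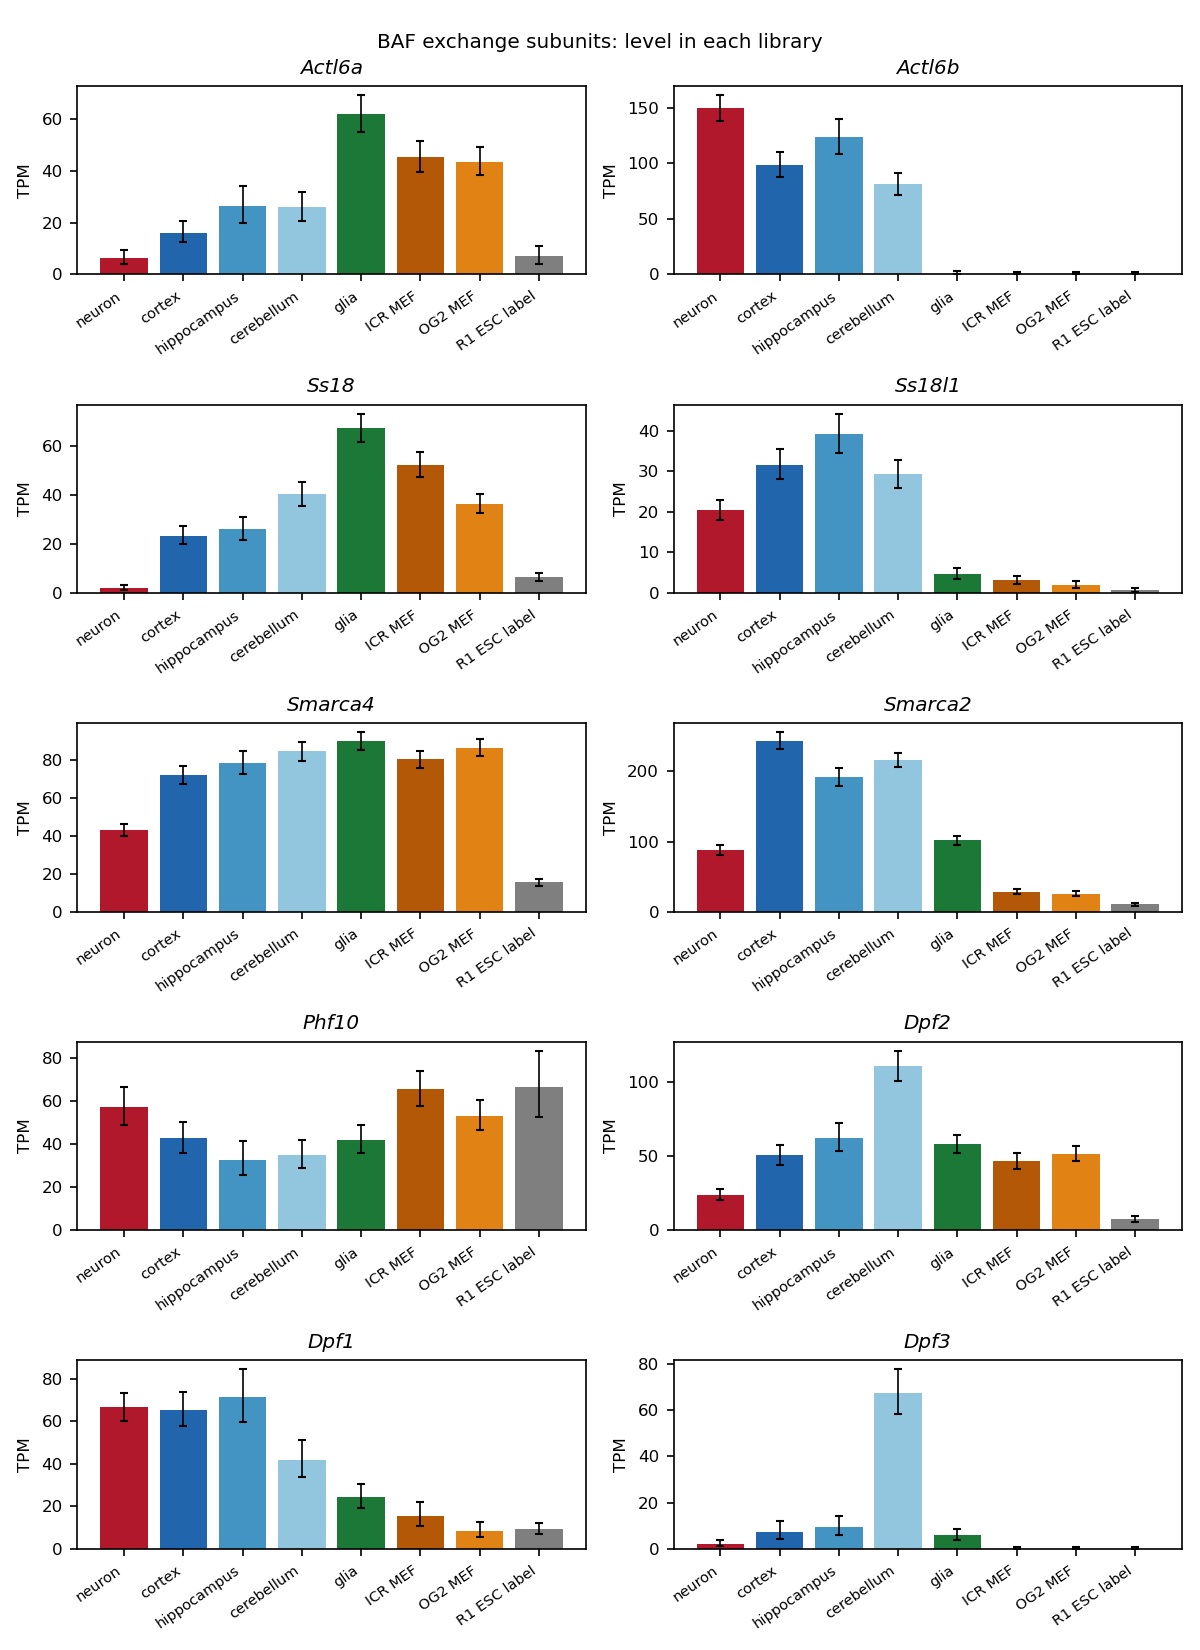
Level (TPM, each axis from 0) of the 10 genes in each of the 8 libraries; bars are single libraries and whiskers the exact 95% Poisson interval of the count. Actl6b stands between 81.1 and 149.8 TPM in neuron and the brain regions and at 0 in the other 4 libraries, while Actl6a is highest in glia at 62.0 TPM.

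Actl6b and Actl6a, the neuronal and progenitor forms of the actin-like subunit, gave the sharpest exchange. Actl6b (ENSMUSG00000029712, chromosome 5, 137553517 to 137569582, mm10) stood at 149.8 TPM in neuron, 123 in hippocampus, 98.3 in cortex and 81.1 in cerebellum. It had 0 counts in glia, ICR MEF, OG2 MEF and the library labelled R1 ESC. Set at a floor of 3 counts these 4 libraries would stand at 1.86 to 2.21 TPM, and the upper ends of their exact 95% intervals, drawn as whiskers in the plot of levels, lie at 2.28 to 2.72 TPM. Every library with high neuronal markers was thus above every other library, and neighbours in the order neuron, hippocampus, cortex and cerebellum differed by more than their counting intervals. With glia at the floor Actl6b was at least 67.7-fold higher in neuron, and with the MEFs at the floor at least 38.0-fold higher in the lowest brain region. These bounds take the higher level as measured and are not 95% limits.

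Actl6a (ENSMUSG00000027671, chromosome 3, 32706298 to 32726973) was read in all 8 libraries. Glia held 62.0 TPM, ICR MEF 45.4 and OG2 MEF 43.5, followed by 26.5 in hippocampus, 26.0 in cerebellum, 16.2 in cortex, 6.96 in the library labelled R1 ESC and 6.42 in neuron. Glia and both MEF libraries were the high ones, and the values of the MEFs, of hippocampus with cerebellum, and of the last 2 libraries differed by less than counting error. The gene was 9.66-fold (6.38 to 15.3) lower in neuron than in glia. Its counts were not whole in any library, so part of its reads were shared with other loci and its levels are uncertain to that extent. The 7 dividing-cell markers ran in a similar order, summing to 976 TPM in glia, 545 and 537 in the MEFs, 19.7 to 22.6 in the brain regions, 11.6 in neuron, with 84.3 in the library labelled R1 ESC. Their part in the Actl6a levels was not tested.

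The share that Actl6b took of the summed Actl6a and Actl6b level within a library does not depend on how that library was scaled. It was 95.9% (94.0 to 97.3) in neuron, 85.9% (82.3 to 89.0) in cortex, 82.3% (77.6 to 86.4) in hippocampus and 75.7% (71.0 to 80.0) in cerebellum. It was 0% in glia, with an upper bound of 4.23%, and 0% in the MEFs, with bounds of 5.50% and 5.02%. With 19.04 counts behind it, the share in the library labelled R1 ESC was bounded only at 27.7%. In bulk tissue fewer cells of a type and less RNA per cell cannot be told apart, so the brain shares do not give a share of cells.

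**Figure D2:**
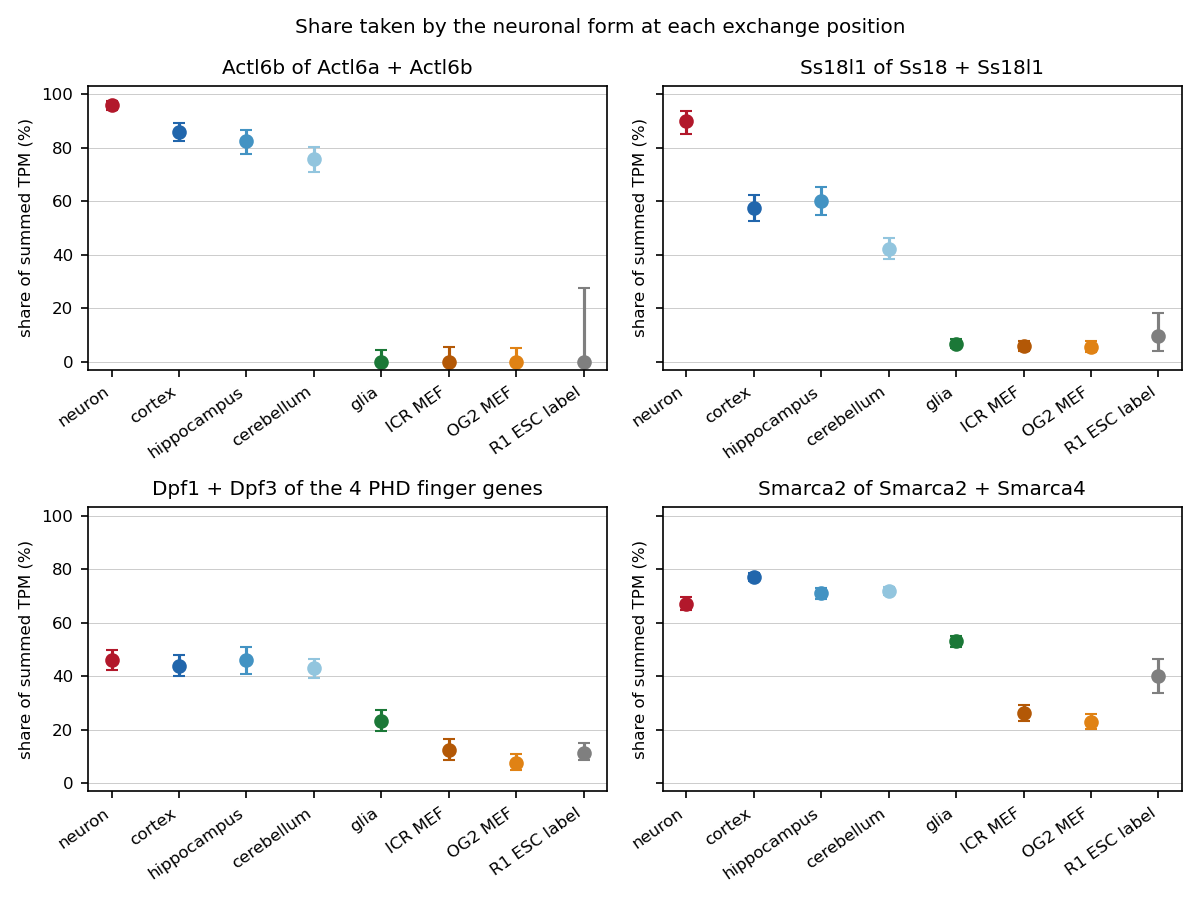
Share (percent of summed TPM) of the neuronal form (for the ATPases, Smarca2) at each of the 4 exchange positions in the 8 libraries. Points are single libraries and whiskers exact 95% intervals for counting error. At the PHD finger position the whiskers hold the mix of genes within each side fixed and are not exact. At the actin-like and SS18 positions neuron stands at 95.9% and 90.1% and glia at 0% and 6.50%, while at the PHD finger and ATPase positions neuron and glia lie closer.

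Ss18l1 and Ss18, which share a transactivation role in the complex, exchanged in the same direction. Ss18l1 (CREST, a calcium-responsive transactivator, ENSMUSG00000039086, chromosome 2, 180042509 to 180070201) stood at 39.2 TPM in hippocampus, 31.6 in cortex, 29.3 in cerebellum and 20.4 in neuron. Glia held 4.67 TPM, ICR MEF 3.12, OG2 MEF 2.07 and the library labelled R1 ESC 0.66 TPM. Neuron and the brain regions lay above the other 4 with no overlap, while glia and ICR MEF differed by less than counting error. The gene was 9.38-fold (6.62 to 13.7) higher in the lowest brain region than in the higher MEF. It was 4.36-fold (3.25 to 5.94) higher in neuron than in glia, which fell under 4-fold once 1 TPM was added and was not called (log2 ratio 1.91). With 0.1 TPM added, with TMM factors of the TPM or with CPM (counts per library total, not corrected for length) it was called, at 2.10, 2.63 and 2.69.

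Ss18 (ENSMUSG00000037013, on chromosome 18) was lowest in neuron. It stood at 67.2 TPM in glia, 52.3 in ICR MEF, 40.2 in cerebellum, 36.3 in OG2 MEF, 26.1 in hippocampus, 23.4 in cortex, 6.36 in the library labelled R1 ESC and 2.24 in neuron. Brain regions and MEFs overlapped, since cerebellum lay above OG2 MEF by less than counting error. Neuron was 30.0-fold (19.2 to 49.5) below glia and 10.4-fold (6.53 to 17.6) below the lowest brain region, and the second call was lost with 5 TPM added (log2 ratio -1.97). The Ss18l1 share of the position was 90.1% (85.2 to 93.8) in neuron against 42.1% to 59.99% in the brain regions. It was 6.50% (4.92 to 8.41) in glia, 5.63% and 5.40% in the MEFs, and 9.40% (4.09 to 18.0) in the library labelled R1 ESC. Among the regions cerebellum had the lowest share of the neuronal form at this position and at the actin-like one.

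The ATPases followed another course. Smarca2 (BRM, ENSMUSG00000024921, chromosome 19, 26605050 to 26778322) stood at 244 TPM in cortex, 216 in cerebellum, 192 in hippocampus, 101 in glia, 87.9 in neuron, 28.7 in ICR MEF, 25.7 in OG2 MEF and 10.3 in the library labelled R1 ESC. All 5 brain-derived libraries lay above all others, glia included. It was 6.69-fold (5.71 to 7.86) higher in the lowest brain region than in the higher MEF. In glia it was 3.54-fold (3.03 to 4.16) above the higher MEF, under the threshold, and with a single effective length per gene it was called there (log2 ratio 2.20).

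Smarca4 (BRG1, ENSMUSG00000032187, chromosome 9, 21616169 to 21704230) was the most even of the 10 across glia, the MEFs and the brain regions, at 72.1 to 90.1 TPM. Each neighbouring pair in that order differed by less than counting error. Neuron stood lower, at 43.3 TPM, and the library labelled R1 ESC at 15.5 TPM. Smarca2 took 77.2% (75.7 to 78.6) of the summed ATPase level in cortex, 71.8% in cerebellum, 70.9% in hippocampus, 67.0% (64.5 to 69.4) in neuron and 53.0% (50.9 to 55.1) in glia. In the MEFs it took 26.3% and 22.8%, and in the library labelled R1 ESC 39.96%. The larger Smarca2 share in brain regions than in MEFs thus came with a higher Smarca2 level beside an overlapping Smarca4 level. Between neuron and glia the shares differed by 14.0 points, or 4.91 points with a single effective length per gene, since the effective length of Smarca2, which has 17 transcripts in the table, ran from 2104 to 3309 bases.

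Among the PHD finger genes, Dpf1 (BAF45b, ENSMUSG00000030584, chromosome 7, 29303951 to 29318243) was the neuronal form that neuron and forebrain held. It stood at 71.4 TPM in hippocampus, 66.6 in neuron, 65.5 in cortex, 42.1 in cerebellum, 24.4 in glia, 15.6 in ICR MEF, 9.36 in the library labelled R1 ESC and 8.48 in OG2 MEF. The first 3 of these differed by less than counting error, and neuron and the brain regions did not overlap the rest. Dpf1 was 2.73-fold (2.12 to 3.56) higher in neuron than in glia, which was not called (log2 ratio 1.41). It was called with a single effective length per gene (2.39), by TMM factors of the TPM (2.22) and by CPM (3.02). Its effective length was 2035 bases in neuron and 1025 in glia. Against the MEFs it was 2.69-fold (1.78 to 4.17) higher in the lowest brain region, and was called without ICR MEF (log2 ratio 2.18).

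Dpf3 (BAF45c, a reader of acetylated and methylated histone H3, ENSMUSG00000021221, chromosome 12, 83213745 to 83487716) was a cerebellar gene in these libraries. Cerebellum held 67.6 TPM, hippocampus 9.48, cortex 7.37, glia 5.84, neuron 2.29 and the library labelled R1 ESC 0.12 TPM, and both MEFs had 0 counts. Cerebellum stood apart from all others, 7.13-fold (4.65 to 11.4) above hippocampus, and was the only library above 10 TPM. Neuron, on 12 counts, lay below glia, on 23 counts. Of the PHD finger level, Dpf3 took 26.4% in cerebellum and 1.52% in neuron, while Dpf1 took 16.4% and 44.3%.

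Dpf2 and Phf10 are the progenitor forms at this position. Dpf2 (BAF45d, ENSMUSG00000024826, chromosome 19, 5896516 to 5913010) was highest in cerebellum at 111 TPM. It stood at 62.2 TPM in hippocampus, 58.1 in glia, 51.5 in OG2 MEF, 50.6 in cortex and 46.8 in ICR MEF, and lowest in neuron (23.9) and the library labelled R1 ESC (7.48). From hippocampus to ICR MEF neighbours differed by less than counting error, so brain regions and MEFs overlapped. Neuron was 2.43-fold (2.0 to 2.96) below glia. Phf10 (BAF45a, ENSMUSG00000023883, chromosome 17, 14945009 to 14961273) had the narrowest range over all 8 libraries, from 32.9 TPM in hippocampus and 35.2 in cerebellum through 42.1 in glia, 42.8 in cortex, 53.3 in OG2 MEF, 57.4 in neuron and 65.8 in ICR MEF to 66.9 in the library labelled R1 ESC. In neuron it was 1.36-fold (1.10 to 1.70) above glia, a direction that turned with a single effective length per gene (log2 ratio -0.18).

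The order of the Phf10 levels depended on length. Its effective length was 938 bases in neuron and, at 401 bases, shortest in the library labelled R1 ESC, against 1384 to 1467 elsewhere. With a single effective length, the library labelled R1 ESC fell from the highest to the lowest place at 22.0 TPM, and neuron stood at 44.7 TPM against 50.8 in glia. Counts of Phf10 were not whole in 7 of 8 libraries and those of Dpf2 in 2, so these levels are uncertain where reads were shared. Dpf1 and Dpf3 together took 42.9% (39.4 to 46.4) of the PHD finger level in cerebellum, 43.8% in cortex, 45.9% in hippocampus and 45.8% (42.2 to 49.5) in neuron. They took 23.2% (19.3 to 27.3) in glia, 12.2% and 7.49% in the MEFs and 11.3% in the library labelled R1 ESC. The difference of 22.7 points between neuron and glia was 43.6 points with a single effective length per gene. With that length neuron stood at 61.1%, above the brain regions at 38.0% to 47.8%. The library labelled R1 ESC then stood at 33.9%, above glia at 17.5% and the MEFs at 6.09% and 4.46%. The order of these shares thus depended on length.

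**Figure D3:**
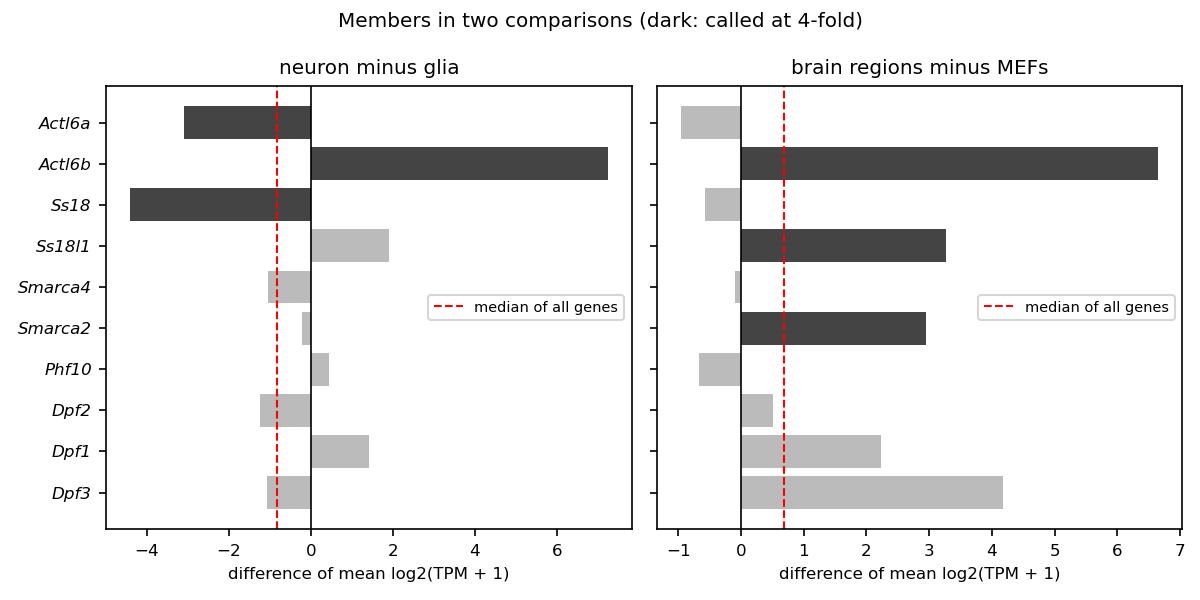
Difference of mean log2(TPM + 1) of the 10 genes for neuron minus glia (1 library each) and for the 3 brain regions minus the 2 MEFs; dark bars passed the calling rule and the dashed line is the median of all genes. Actl6a and Ss18 lie below and Actl6b above the median for neuron, and Actl6b, Ss18l1 and Smarca2 are dark for brain.

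Counted by the rule, neuron against glia gave 1 higher member (Actl6b) and 2 lower ones (Ss18 and Actl6a) of 10, 9 of them testable, where 10.4% of 11185 testable genes were higher and 30.5% lower. The 9 members averaging 10 TPM or more had a median difference of -0.20 on the log2 scale, against -0.83 over all genes. Of the called genes 74.6% were lower, which was 51.6% with TMM factors of the TPM, and 60.6% by CPM, at all-gene medians of 0.15 and -0.24. Actl6b, Actl6a and Ss18 were called in the same direction under each of these scalings. At 2-fold 3 members were higher and 4 lower, beside 18.7% and 49.1% of genes. Smarca2 changed from -0.20 to 0.62 with TMM factors of the TPM. Neuron also had a shorter mean effective length per count (2488 bases) than glia (3409 bases), and what this adds to the differences was not tested.

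Brain regions against MEFs gave 3 higher members (Actl6b, Ss18l1 and Smarca2) and 0 lower ones, with 9 of 10 testable, where 17.0% of 10730 genes were higher and 6.67% lower. The median of the 10 members was 1.37, against 0.68 over all genes. The share of lower genes among the called, 28.2%, was 46.8% with TMM factors of the TPM, or 37.9% by CPM, and the same 3 members were called under both. Without ICR MEF there were 4 members, with Dpf1. Actl6a was 1.64-fold (1.23 to 2.23) lower in the highest brain region than in the lower MEF, and it was still read at 16.2 to 26.5 TPM beside Actl6b in every region. Markers of oligodendrocytes, astrocytes and microglia were high in the same regions, at 3824 to 5145, 871 to 1632 and 93.9 to 311 TPM in sum, and their part in the Actl6a level there was not tested.

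Between glia and the MEFs 0 of the 7 testable members were called (Actl6b was at 0 in all 3 libraries), where 10.3% of genes were higher and 2.98% lower. At 2-fold Smarca2 alone was called, as higher, beside 26.7% of genes higher and 6.65% lower. Against the brain regions 2 of the 9 testable members were lower in glia, Actl6b and Ss18l1 (6.26-fold, 4.68 to 8.51), where 9.04% of genes were lower and 6.91% higher, and the second was lost with 5 TPM added (log2 ratio -1.82). Actl6a was 2.34-fold (1.76 to 3.17) higher in glia than in the highest region and was not called. Sums of fibroblast, dividing-cell and neural progenitor markers were high in glia too, at 1226, 976 and 855 TPM. The first came mostly from Fn1 and the last mostly from Nes and Sox2. The part of these markers was not tested.

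Neuron against the brain regions gave 1 of 9 testable members, Ss18, which was lower, where 19.2% of genes were lower and 1.97% higher. Actl6b was 1.21-fold (1.04 to 1.41) above hippocampus and Ss18l1 1.44-fold (1.21 to 1.70) below cerebellum, neither called. All genes had a median of -1.07 here, against -0.68 for the mean difference of Ss18l1, whose share of the position was nonetheless highest in neuron. At 2-fold 4 members were lower and 0 higher, beside 42.1% and 7.16% of genes. Of the called genes 90.7% were lower, which was 46.9% by TMM factors of the TPM or 68.3% by CPM.

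Within the brain, cerebellum differed from cortex and hippocampus in 1 member, Dpf3, which was higher, where 2.36% of genes were higher and 3.15% lower. Dpf2 was 1.78-fold (1.49 to 2.13) and Ss18 1.54-fold (1.24 to 1.92) higher in cerebellum, and Dpf1 1.56-fold (1.23 to 1.99) and Actl6b 1.21-fold (1.02 to 1.44) lower, none of them called. Smarca2, Phf10 and Actl6a of cerebellum lay within the range of the other regions. Apart from Dpf3, the regions thus differed in their members by less than 4-fold.

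The MEF libraries gave 0 called members of 7 testable, where ICR MEF was higher for 0.437% of genes and lower for 0.149%. Their folds for the 8 members with counts ran from 1.04 to 1.84, the last for Dpf1 on 31 and 24 counts, which is the only view of spread between like libraries. The library labelled R1 ESC was lower than both MEFs in 4 of 6 testable members, Actl6a, Ss18, Dpf2 and Smarca4, by 5.18-fold to 6.26-fold. There, 48.0% of 8461 genes were lower and 4.83% higher, and the median of all genes was -1.99 against -2.35 for the members. With TMM factors of the TPM 0 of the 4 were called and with CPM only Actl6a, so this count says little about the members. The share of lower genes, 90.9%, was 50.6% and 77.3% under these scalings.

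**Figure D4:**
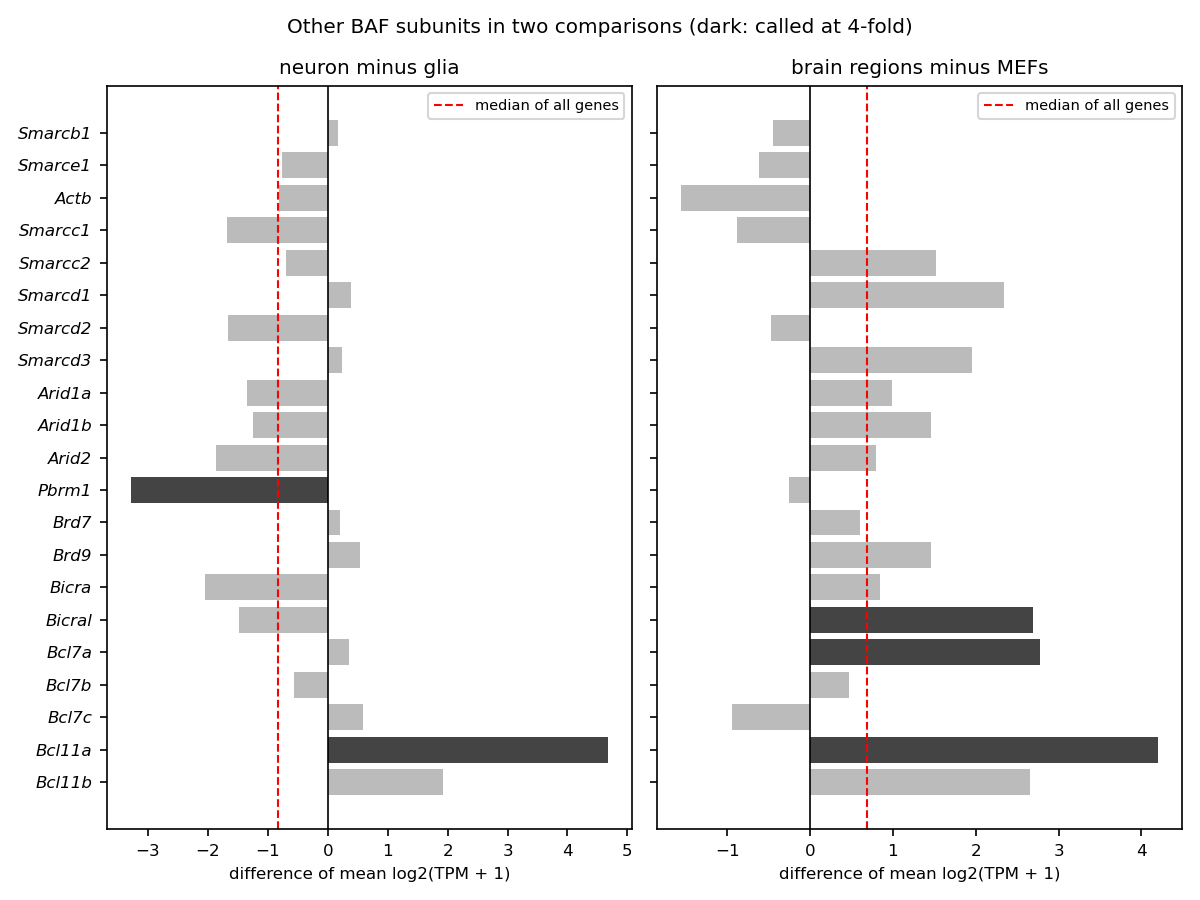
Difference of mean log2(TPM + 1) of the 21 other BAF subunits for neuron minus glia (1 library each) and for the 3 brain regions minus the 2 MEFs; dark bars passed the calling rule and the dashed line is the median of all genes. Bcl11a is dark and higher in both and Pbrm1 is dark and lower for neuron.

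The other 21 subunits, a list of core and accessory genes, mostly did not pass the rule. In neuron against glia 1 was higher and 1 lower (median -0.63). Of all testable genes 10.4% were higher and 30.5% lower there, at an all-gene median of -0.83. Bcl11a (CTIP1, a zinc-finger factor of cortical neurons) stood at 49.8 against 0.99 TPM, 50.3-fold (27.0 to 106) higher. Pbrm1, which defines the PBAF form of the complex along with Phf10, stood at 4.89 against 56.6 TPM, 11.6-fold (9.56 to 14.1) lower. In brain regions against MEFs 3 were higher and 0 lower (median 0.89), beside 17.0% and 6.67% of all testable genes (median 0.68). The 3 were Bcl11a, Bcl7a at 49.8 to 55.6 against 6.42 and 7.05 TPM, and Bicral at 26.5 to 32.2 against 3.22 and 4.17 TPM. Smarcb1, a core subunit, stood at 68.8 to 108 TPM outside the library labelled R1 ESC.

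Paralogue shares were also taken at 4 positions outside the 10 genes. Smarcc2 (BAF170) took 91.0% of the summed Smarcc1 and Smarcc2 level in cerebellum, 83.8% in hippocampus, 81.0% in cortex, 78.8% in neuron and 64.2% in glia, against 53.6% and 51.8% in the MEFs. Smarcd3 (BAF60c) took 67.3% of the Smarcd level in neuron and 59.6% in glia, with 31.7% to 48.4% in the brain regions and 25.4% and 26.6% in the MEFs. The Smarcc share thus ordered the libraries with neurons first, while the Smarcd3 share did not. Arid1b took 36.3% to 51.2% of the Arid1 level in the brain regions, 39.1% in neuron, 38.3% in glia and 31.9% and 34.5% in the MEFs. Bcl11b was read at 51.7 and 55.3 TPM in cortex and hippocampus but at 0.71 in cerebellum and 4.52 in neuron, where Bcl11a stood at 12.5 and 49.8 TPM.

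The known upstream regulators of the exchange were also measured as transcripts. Rest stood at 17.3 TPM in glia, 13.7 and 12.4 in the MEFs, 2.25 to 2.65 in the brain regions, 0.36 in the library labelled R1 ESC and 0.19 in neuron. It was 90.9-fold (34.9 to 333) lower in neuron than in glia. As groups, glia, the MEFs, the brain regions and neuron came in the same order for Rest and for Actl6a. Among the brain regions the orders differed: Rest was highest in cortex, at 2.65 TPM, where Actl6a was lowest, at 16.2 TPM. The Rest intervals of the regions overlapped. The part of Rest in the Actl6a levels was not tested. Mir124a-1hg and Mir124-2hg, host transcripts of miR-124, stood at 24.6 and 47.98 TPM in neuron and at 0 and 1.25 in glia. In the brain regions they stood at 117 to 345 and 19.8 to 44.4 TPM. Mir124a-1hg was thus 4.76-fold (4.15 to 5.48) lower in neuron than in the lowest region, while Mir124-2hg was 1.08-fold (0.894 to 1.30) above the highest. Actl6a was lower in neuron than in every region, though not called. All genes had a median of -1.07 in this comparison. The part of the miR-124 hosts in the Actl6a levels was not tested. The miR-9 host Mir9-3hg stood at 101 TPM in glia, 40.3 to 56.0 in the brain regions, 34.2 in neuron and 0 in both MEFs. Glia thus had the highest level of both Mir9-3hg and Actl6a, and host transcripts do not give the level of mature microRNA, which was not analysed here. Of the 7 genes of this list 2 were higher and 3 lower in neuron than in glia, beside 10.4% and 30.5% of all testable genes. The lower ones were Rest, its corepressor Rcor1 and the splicing repressor Ptbp1.

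Actl6a also belongs to the INO80, SRCAP and TIP60 complexes. Of 12 other genes of these, 0 were higher and 1 lower in neuron than in glia (Ep400, 4.51 against 30.4 TPM). In brain regions against MEFs 0 were called, and Actl6a itself was not called. Of all testable genes 10.4% were higher and 30.5% lower in the first comparison, and 17.0% and 6.67% in the second. Of 11 ATPases of other remodellers 1 was higher in neuron than in glia, Chd5 at 43.9 against 2.61 TPM, and 6 were lower, among them Chd4 at 17.4 against 151 and Smarca5 at 7.28 against 68.1 TPM. Their median of -2.11 lay below that of all genes, at -0.83. Smarca4, at 43.3 against 90.1 TPM, differed by 2.08-fold (1.90 to 2.28) and was not called. In neuron the effective lengths of the 6 lower ATPases ran from 5526 bases (Chd6) to 11353 (Chd9). Those of Chd5 and Smarca4 were 5173 and 5371 bases. The mean effective length per count was 2488 bases in neuron and 3409 in glia, and the part of length in these differences was not tested.

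By Pearson correlation of log2(TPM + 1) over the 8 libraries, the genes most like Actl6b among 12293 were Sncb (0.998), Panx2 (0.996), Tmem28 (0.9955), Slc45a1 (0.9955) and Fbll1 (0.995). Those most like Actl6a were Pgm5 (0.9895), Phactr4 (0.989), Skp2 (0.988), Gstt3 (0.988) and Sept2 (0.987). The 8 points share the split between libraries with high and low neuronal markers and differ in depth, so the values describe the profile only.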

How the data were processed

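RNA-seq tables of 8 libraries were used, 1 per group, made with a TruSeq RNA kit per the labels' protocols. Per the submitters' processing notes the authors used Bowtie and RSEM on mm10; the sources used here give neither versions nor the annotation release. The deposited expected counts are RSEM estimates, which need not be whole where reads are shared (88.9% were whole). The deposited TPM values were computed by the authors from these counts and effective lengths. No count test was run, since groups hold 1 library. Total counts of 2147004 to 5864673 set the precision, and intervals cover counting error only.

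Symbols came from the reference annotation (29202 of 29713 identifiers matched). A gene was called at 10 TPM or more in every library of the higher side and 4-fold between nearest libraries on TPM + 1. A gene was testable where either side reached 10 TPM in every library. Medians cover genes averaging 10 TPM or more. Exact 95% intervals were computed with scipy 1.17.1 (Python 3.11.15, numpy 2.4.6, pandas 2.3.3), and TMM factors with edgeR 4.0.16 in R 4.3.3. Intervals of the PHD finger shares pool the counts of each side at its mean effective length and are not exact. A count of 0 was set to 3 counts in a bound. The scripts were tested on simulated data. Alternatives were 0.1 or 5 TPM added, a floor of 1 TPM, 2-fold, TMM factors of the TPM, CPM, equal depth by thinning, 1 effective length per gene and leaving out each library of a group of several. All members were named, with list genes called in neuron against glia or brain regions against MEFs, fixed paralogue pairs and the 5 genes most like Actl6b and Actl6a. Smarcb1 and Bcl11b levels were added after their values were seen. Members and lists were chosen with earlier results of these data known.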

Additional observations from a re-analysis of the deposited data

How the results depend on the processing

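Members called in neuron against glia numbered 3, and 7 at 2-fold, 5 each by TMM factors of the TPM and by CPM. In glia against MEFs 0 became 1 with a floor of 1 TPM (Dpf3), 1 at 2-fold and 1 with a single effective length (Smarca2 in both). In glia against brain regions 2 became 1 with 5 TPM added. In neuron against brain regions 1 became 0 with 5 TPM added and 4 at 2-fold. For the library labelled R1 ESC against MEFs 4 became 0 (TMM factors of the TPM) and 1 (CPM). The Ss18l1 share difference between brain regions and MEFs, 36.5 points, was 42.8 with counts in place of TPM. Between neuron and glia the PHD finger share difference, 22.7 points, was 43.2 with counts and 43.6 with a single effective length, and the ATPase share difference, 14.0 points, was 4.97 and 4.91. These alternatives differ from the main values by construction in length or scale, and the cause was not tested further. Leaving out 1 library gave 3 to 4 members for brain regions against MEFs, 0 for glia against MEFs, 2 for glia and 1 for neuron against brain regions, 4 for the library labelled R1 ESC and 1 for cerebellum. Of 105 values of these summaries 89 stayed within their limits and 16 moved. For a count of members the limit was a fixed ratio to the main count, and direction was not scored. For a share difference the limit came from the counting intervals. Only the share differences could change direction, and 0 did. Ratios that were not called could change sign with TMM factors. Among them were Actl6a (-0.04), Dpf2 (-0.17) and Smarca4 (-0.32) between glia and MEFs, and Smarca4 (0.04) between neuron and brain regions. Smarca2 also turned from lower to higher, in neuron against glia and in the library labelled R1 ESC against the MEFs. No paired analysis was possible because each group has 1 library and the labels give no replicate numbers. With 1 library per group, the spread between animals or cultures was not measured.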
